A study of Homo sapiens with 8 samples.

Results

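KCNQ1OT1 and 9 other imprinted genes were followed in large and small human embryonic stem cells. The 10 genes were KCNQ1OT1, CDKN1C, H19, IGF2, MEG3, PEG3, PEG10, MEST, SNRPN and NNAT, and their members on the array were the probe sets that GEO's platform annotation assigns to 1 of these symbols. That gave 27 probe sets for 8 of the genes, out of 54675 on the array. Another 17 probe sets were annotated to a member together with other symbols. They are shown as shared and name no gene, and H19 and IGF2 had shared probe sets only. KCNQ1OT1 was chosen by its small-to-large difference in these arrays, and the other genes were added for their imprinting with the results of the same contrast known. Differences between small and large cells are therefore given here as a description, and no count of members is read as evidence.

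All RNA was from the human embryonic stem cell line H1, an established line kept on irradiated feeder fibroblasts of mouse embryos, with no other treatment named in the labels. A cell sorter divided the culture into a large and a small fraction by scattered light, a reading that depends on cell size and granularity. Each fraction was collected in 4 sorts that the submitters call independent, and each sort was read on its own Affymetrix array for human transcripts. All cells were of 1 line, so nothing here extends to other lines. The labels do not say whether large and small sorts of the same number came from the same culture.

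Imprinted genes are read mainly from 1 parental copy, following DNA methylation set in the egg or sperm. A single control region often governs a cluster of neighbours. KCNQ1OT1 is a long unspliced noncoding RNA read from the paternal copy, antisense to the potassium channel gene KCNQ1, and it silences neighbours such as the cell cycle inhibitor gene CDKN1C on the same chromosome. Imprinted marks are known to be variable in cultured pluripotent cells. The arrays measured both parental copies together, so no value below is specific to an allele.

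The pluripotency factors NANOG and SOX2 were at 10.67 ± 0.08 and 10.29 ± 0.08 (SD, n = 4) in small cells and at 10.73 ± 0.07 and 10.46 ± 0.13 (SD, n = 4) in large cells. Levels are log2 intensities after quantile normalization between arrays, and differences are small minus large on that scale with moderated standard errors. Overall brightness differed between arrays, with 75th percentiles from 42 to 106 intensity units in the deposited table. Before any result, large array 1 stood apart in a sign of RNA quality: the 3 prime minus 5 prime log2 difference of GAPDH and ACTB was 2.91 there, 1.83 to 1.89 on the other large arrays and 1.94 to 2.66 on the small arrays (exact two-sided permutation p = 0.4 for small against large; the smallest possible is 0.0286). In this measure every small array lay above every large array but large array 1. The p therefore does not show that the fractions were alike. A probe set entered the test if its mean over all arrays was above the 40th percentile, or 3.62. Of the 27 members with 1 symbol 17 passed, and 10 did not. Of the 17 shared ones 11 passed. In 4 of those that passed (2 with 1 symbol and 2 shared) the small mean alone lay below that level.

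At an adjusted p under 0.05 (limma, Benjamini-Hochberg over 32768 probe sets), 1 of the 17 members was lower in small cells and none was higher, beside 1.3% of all tested probe sets lower and 0.198% higher. The single probe set was the KCNQ1OT1 one by which the gene had been picked, so nothing is read from this count. At an unadjusted p under 0.05 there were 4 of 17, beside 15.3% of all tested. None of the 11 shared probe sets passed, and 4 of them had an unadjusted p under 0.05. The median difference was -0.20 over the 17, -0.37 over the 11 shared and 0.02 over all tested probe sets. The 4 small values all lay below the 4 large values for 2 of the 17 and for 4 of the 11 shared, beside 5.46% of all tested probe sets, and for none of either did they all lie above, beside 3.89%, or 9.34% for the 2 directions together. Of the 4 shared ones 1, 216850_at, had passed the filter through the large group alone.

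**Figure D1:**
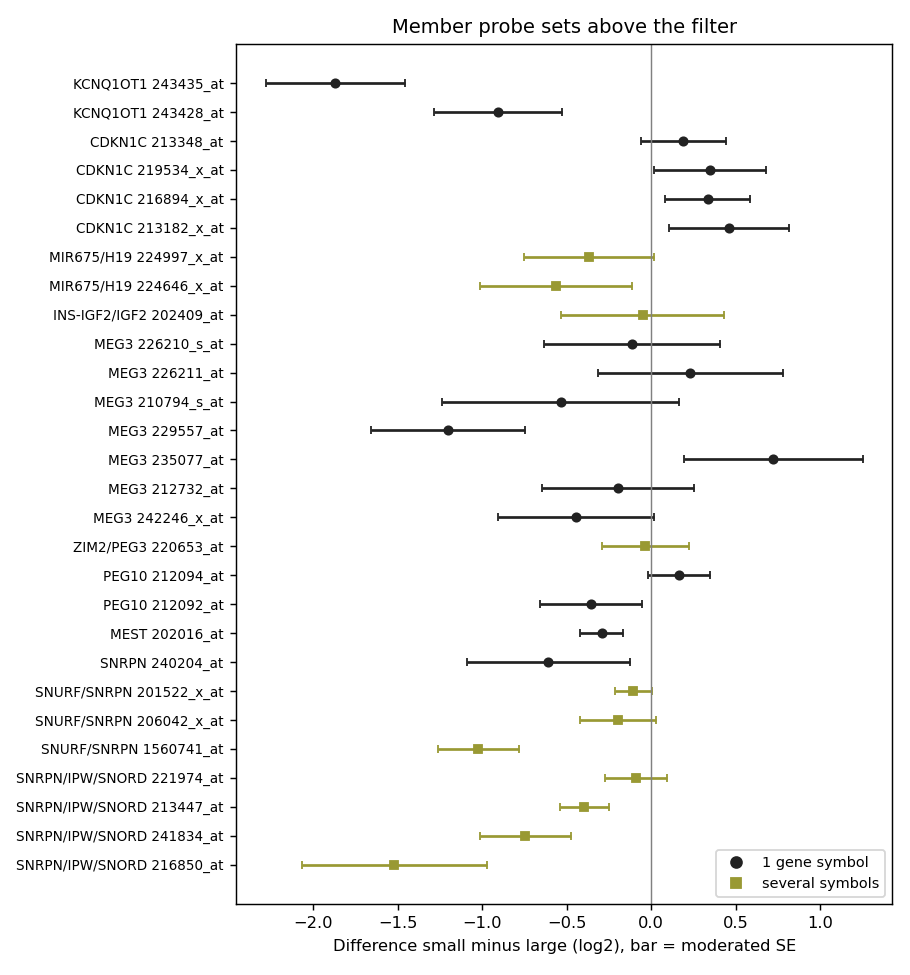
Difference between small and large cells (log2, horizontal axis) for the 28 member probe sets above the filter, with moderated standard errors as bars (4 arrays per group). Circles are probe sets with 1 gene symbol and squares those shared with other symbols; KCNQ1OT1 243435_at lies farthest to the left at -1.87, while the 4 CDKN1C probe sets lie between 0.19 and 0.46.

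KCNQ1OT1 was measured by 5 probe sets, 2 of them above the filter. The brighter, 243435_at, was at 6.24, 6.31, 6.05 and 5.93 on large arrays 1 to 4 and at 4.65, 4.50, 5.15 and 2.77 on small arrays 1 to 4. The large arrays lay close together, all small arrays lay below them, and small array 4 was far below the rest. On the deposited linear scale the same probe set read 47.6, 72.1, 105 and 72.2 units in large and 20.4, 16.2, 48.7 and 4.32 units in small cells, where small array 3 reached the level of large array 1 before normalization. The mean was 6.13 ± 0.17 (SD, n = 4) over large arrays and 4.27 ± 1.03 (SD, n = 4) over small ones. This is a difference of -1.87 ± 0.41 SE, or 3.65-fold. Without small array 4 the difference was -1.39. The probe set passed the threshold with small array 3 or small array 4 left out and with none of the other 6 arrays left out.

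The second probe set, 243428_at, was at 4.69, 4.50, 4.46 and 4.47 in large and at 3.12, 3.15, 4.09 and 4.13 in small cells. Its groups did not overlap either, but small arrays 3 and 4 lay close to the large ones. Small array 4, the lowest small array for the first probe set, was the highest small array here. The small mean, 3.62, was at the level of the filter, and small arrays 1 and 2 lay below it. The difference was -0.91 ± 0.38 SE. Within groups the 2 probe sets did not move together (r = -0.34 over deviations of the 8 arrays from their group means, values that share arrays and scaling). The other 3 KCNQ1OT1 probe sets were below the filter, with overlapping groups and differences of 0.20 (244727_at), -0.39 (237249_at) and 0.12 (204486_at). In bulk RNA, fewer cells with the transcript and less of it per cell cannot be told apart.

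**Figure D2:**
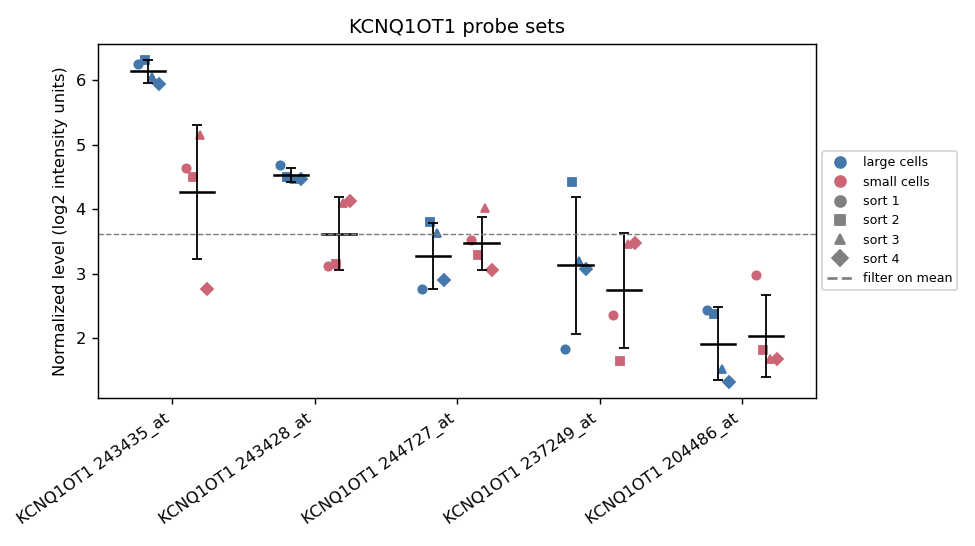
Normalized level (log2 intensity units, vertical axis) of the 5 KCNQ1OT1 probe sets on each array, with large cells in blue, small cells in red and a symbol for each sort number; black bars are group means ± SD (n = 4) and the dashed line is the filter at 3.62. Only 243435_at and 243428_at lie above the filter on average, and in both every small array is below every large array.

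Genes around KCNQ1OT1 on chromosome 11 were read in the order of the RefSeq gene table, from H19 to OSBPL5. The choice of this run was made after the values of KCNQ1OT1 had been seen. Of 39 genes in the run 16 had a tested probe set of their own, and 14 of those were not members, with 21 probe sets. None of the 21 passed (limma, adjusted over all probe sets; 1.5% of all tested probe sets passed), their median difference was 0.14, and 9 of them were below 0. The differences ran from -0.87 for CD81, a tetraspanin gene, to 1.04 for OSBPL5 223464_at, of an oxysterol-binding protein gene. In both the groups overlapped, and the other OSBPL5 probe set, 233734_s_at, differed by 0.19 ± 0.64 SE. KCNQ1, whose gene contains KCNQ1OT1 on the other strand, was at 4.76, 4.06, 4.53 and 4.59 in large and at 4.99, 5.37, 5.69 and 5.43 in small cells on 204487_s_at. Every small value was above every large one, and the difference was 0.89 ± 0.27 SE (adjusted p = 0.129 over probe sets). That order was seen in 3.89% of all tested probe sets and, in this run, also for CARS1 202402_s_at (0.44 ± 0.16 SE). On the other tested probe set of KCNQ1, 211217_s_at, the groups overlapped and the difference was -0.25 ± 0.52 SE. PHLDA2, an imprinted gene of the same cluster that restrains placental growth, differed by 0.53 ± 0.21 SE (adjusted p = 0.25 over probe sets).

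CDKN1C encodes the p57 inhibitor of cyclin-dependent kinases and is read from the maternal copy. Its brightest probe set, 213348_at, was at 6.86, 7.19, 7.60 and 7.22 in large and at 7.71, 7.06, 7.97 and 6.90 in small cells. The groups overlapped, with small arrays 1 and 3 high and small array 4 lowest but for large array 1. The difference was 0.19 ± 0.25 SE (adjusted p = 0.768). The other 3 tested probe sets ended in _x_at, a class that can bind several transcripts. They differed by 0.35 (219534_x_at), 0.34 (216894_x_at) and 0.46 (213182_x_at), with overlapping groups and none passing. Over deviations from the group means these 3 moved together (r = 0.882, 0.787 and 0.866), so they are not independent readings. With 213348_at they had r = 0.147, -0.115 and 0.146. The remaining one, 219533_at, was below the filter and differed by -0.11. Of the related inhibitors CDKN1A, CDKN1B, CDKN2A, CDKN2B, CDKN2C, CDKN2D and CDKN3, 4 of 7 were tested, with a median difference of 0.17. None of the 4 passed, beside 1.73% of all genes in either direction. CDKN1B, the p27 gene, differed by 0.29 ± 0.14 SE (limma adjusted p = 0.322 over genes) and CDKN3 by 0.30 ± 0.26 SE.

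**Figure D3:**
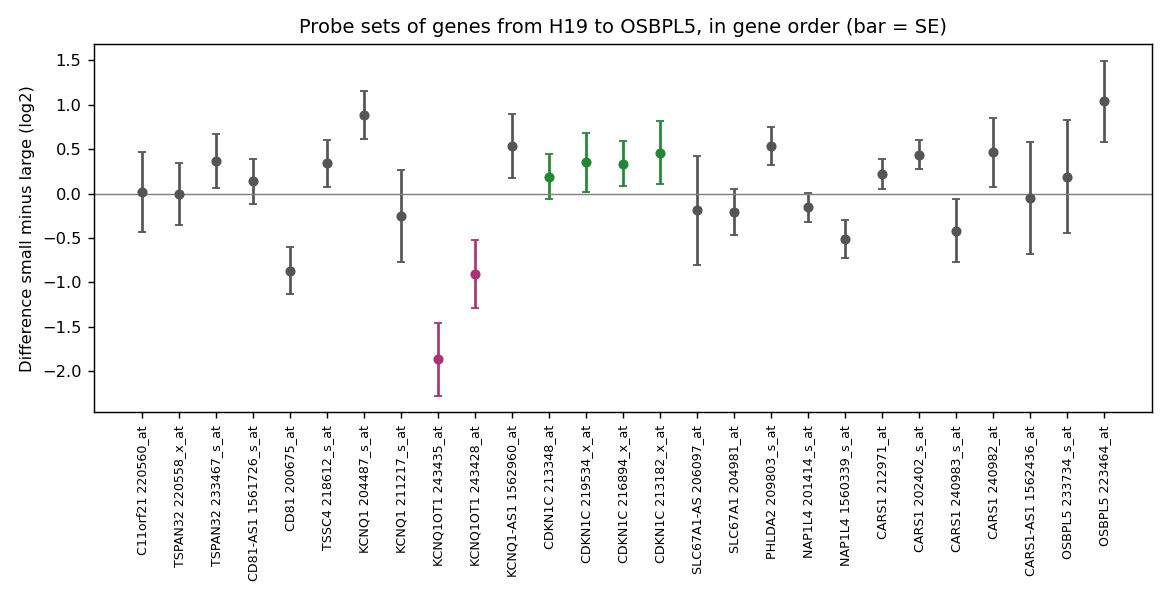
Difference between small and large cells (log2, vertical axis, bars are moderated standard errors, 4 arrays per group) of tested probe sets from H19 to OSBPL5 in the order of the genes. The 2 KCNQ1OT1 probe sets (purple) are at -1.87 and -0.91, the 4 CDKN1C probe sets (green) lie above 0, and the remaining 21 (grey) run from -0.87 to 1.04.

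H19 and IGF2 share a control region in the neighbouring imprinted domain, H19 as a maternal noncoding RNA and IGF2 as the paternal gene of a fetal growth factor. The 2 probe sets for H19 are shared with MIR675, the microRNA inside it. The brighter, 224997_x_at, was at 4.10, 4.40, 3.87 and 4.11 in large and at 3.61, 3.60, 4.32 and 3.47 in small cells. All values lay near the filter, small array 3 stood with the large arrays, and the difference was -0.37 ± 0.38 SE (adjusted p = 0.704). The other, 224646_x_at, passed the filter through the large group alone and differed by -0.56 ± 0.45 SE.

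IGF2 was covered by 3 probe sets shared with INS-IGF2, and the tested one, 202409_at, was at 6.05, 7.56, 6.43 and 5.12 in large and at 6.42, 7.31, 6.05 and 5.17 in small cells. Spread within groups was wide, the groups overlapped throughout, and the difference was -0.05 ± 0.48 SE (adjusted p = 0.974). In each fraction sort 2 was the highest and sort 4 the lowest. The other 2 IGF2 probe sets were below the filter, overlapped, and differed by -0.64 (210881_s_at) and -0.02 (202410_x_at). The pooled SD within groups was 0.95, beside a median of 0.38 over all tested probe sets.

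Promoter windows of 300 bases, from 250 before to 50 after a start site, were taken from RefSeq (GRCh38.p14), where 4 of the 10 genes matched with 13 windows. The strand printed is that of the gene, here the plus strand in each. The motif TGCCGC, which the imprint-keeping protein ZFP57 binds when methylated, was searched on both strands (GCGGCA on the other) and stood in 9 of the 13 windows and 3 of the 4 genes, beside 16.7% of 35116 promoter windows. Windows of 1 gene overlap, so the 9 are not independent, and 28.7% of windows with at least 15 CG dinucleotides held the motif. One window of SNURF and SNRPN, of MEST and of MEG3 is shown, because these are the members with a match and their probe sets, described next, differed in different ways. The capitals mark the motif.
SNURF and SNRPN, chr15:24954737-24955036, plus strand: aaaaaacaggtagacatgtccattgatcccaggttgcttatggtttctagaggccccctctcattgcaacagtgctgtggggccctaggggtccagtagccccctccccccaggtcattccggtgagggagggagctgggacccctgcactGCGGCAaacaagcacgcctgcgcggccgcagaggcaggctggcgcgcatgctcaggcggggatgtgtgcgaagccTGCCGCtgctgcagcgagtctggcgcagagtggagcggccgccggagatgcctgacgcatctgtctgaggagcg
MEST, chr7:130491835-130492134, plus strand: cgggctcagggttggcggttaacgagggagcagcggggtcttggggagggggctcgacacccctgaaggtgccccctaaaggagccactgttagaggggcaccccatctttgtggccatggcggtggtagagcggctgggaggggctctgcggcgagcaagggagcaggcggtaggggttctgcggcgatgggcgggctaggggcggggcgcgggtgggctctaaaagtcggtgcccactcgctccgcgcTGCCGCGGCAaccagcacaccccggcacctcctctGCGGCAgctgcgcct
MEG3, chr14:100825858-100826157, plus strand: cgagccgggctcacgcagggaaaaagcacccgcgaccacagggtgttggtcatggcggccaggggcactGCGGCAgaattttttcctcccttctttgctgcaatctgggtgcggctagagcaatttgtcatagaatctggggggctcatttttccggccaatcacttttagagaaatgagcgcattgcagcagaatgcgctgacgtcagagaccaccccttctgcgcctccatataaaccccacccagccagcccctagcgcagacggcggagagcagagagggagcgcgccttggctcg
The SNURF and SNRPN window held 2 matches and 18 CG dinucleotides, the MEST window 3 matches, 2 of them overlapping, and 25 CG dinucleotides, and the MEG3 window 1 match and 19 CG dinucleotides, beside a median of 14 over all windows. A start site of SNRPN farther upstream, chr15:24856321-24856620, held 7 CG dinucleotides and no match. A match is a run of letters and says nothing of binding or methylation in these cells.

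MEG3, a maternal noncoding RNA, had 10 probe sets, of which 7 were above the filter. The brightest, 226210_s_at, was at 4.55, 6.44, 5.21 and 3.87 in large and at 4.10, 6.05, 5.05 and 4.42 in small cells. Sort 2 was highest in each fraction, the groups overlapped, and the difference was -0.11 ± 0.52 SE (adjusted p = 0.945). The third, 210794_s_at, was at 4.17, 6.24, 5.13 and 3.61 in large and at 4.09, 5.84, 4.90 and 2.18 in small cells, with sort 2 highest and sort 4 lowest in each. Among all 32768 tested probe sets 11.6% had the same sort number highest in each fraction and the same lowest, and among the members it was 2 of 17 with 1 symbol and 2 of 11 shared. Differences over the 7 tested probe sets ran from -1.20 to 0.72, 5 below 0 and 2 above, so the probe sets of MEG3 did not share a direction. The lowest, 229557_at, was at 4.50, 5.12, 4.96 and 4.82 in large and at 3.61, 4.51, 4.16 and 2.30 in small cells, where small array 2 overlapped large array 1, and differed by -1.20 ± 0.45 SE (adjusted p = 0.223). The highest, 235077_at, differed by 0.72 ± 0.53 SE. The remaining tested ones overlapped and differed by 0.23 ± 0.55 SE (226211_at), -0.20 ± 0.45 SE (212732_at) and -0.44 ± 0.46 SE (242246_x_at, which passed the filter through the large group alone). The 3 below the filter also overlapped and differed by 0.44 (231529_at), 0.19 (1558144_at) and 0.24 (227390_at). DLK1, the paternally read Notch-family ligand gene beside MEG3, differed by -0.16 ± 0.30 SE, and DIO3, a deiodinase gene of that cluster, by 0.02 ± 0.45 SE.

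**Figure D4:**
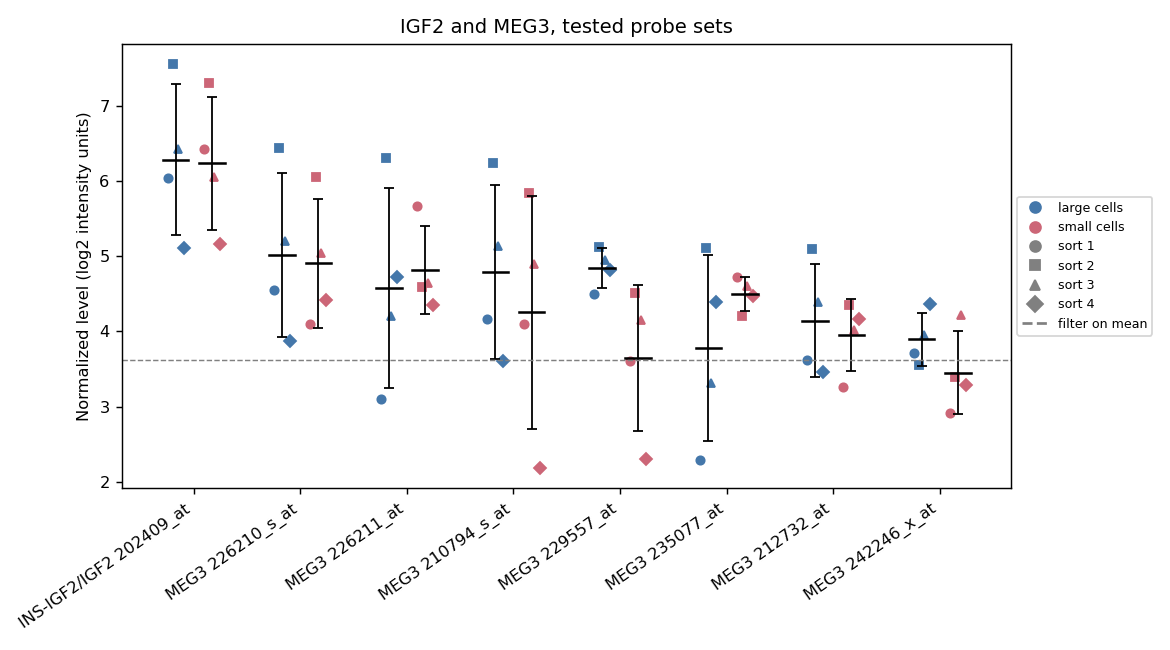
Normalized level (log2 intensity units, vertical axis) on each array for the tested probe set shared by INS-IGF2 and IGF2 and the 7 tested MEG3 probe sets, with large cells in blue, small cells in red and a symbol for each sort number; black bars are group means ± SD (n = 4) and the dashed line is the filter at 3.62. For 202409_at and 210794_s_at the squares of sort 2 are highest and the diamonds of sort 4 lowest in each fraction, and the fractions overlap.

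Markers of other cell types are given beside the levels of KCNQ1OT1, MEG3, IGF2 and the other members, and their part in those results was not tested. The summed linear level of 7 of 8 fibroblast markers ran from 1030 to 1970 in small and from 1340 to 2710 in large cells, and sort 2 was highest in each fraction. For 7 of 8 neuroectoderm markers it ran from 1590 to 3250 and from 1660 to 3110, again with sort 2 highest in each. This sum mostly follows its brightest gene, TUBB3 (mean 10.81 in small and 10.62 in large cells), and says little of the dimmer ones. The median difference of the 7 genes was 0.22, with 1 below 0, beside 0.05 over all genes. For 6 of 8 trophoblast markers the sum ran from 227 to 266 in small and from 268 to 325 in large cells. These ranges did not overlap. For 5 of 8 endoderm markers the sum ran from 181 to 601 in small and from 104 to 398 in large cells. All 5 endoderm genes were above 0, with a median difference of 0.75. All 6 trophoblast genes were below 0, with a median of -0.28. None of these marker genes passed (limma, adjusted over genes), beside 1.73% of all genes in either direction. An unadjusted p under 0.05 was seen for 2390 of all 14726 genes, and here for 3 neuroectoderm genes and 1 endoderm gene. All of these were higher in small cells, among them PAX6 (1.77 ± 0.52 SE) and TTR (1.33 ± 0.51 SE), early neural and endoderm genes. PAX6 overlapped, with large array 1 at 5.63. POU3F2, the 1 neuroectoderm gene of 7 below 0, did not overlap (-0.40 ± 0.36 SE). Nor did TTR, with all small values above, or the trophoblast gene CYP19A1, with all below (-0.65 ± 0.36 SE). Such separation, in either direction, was seen in 10% of all genes. No probe set of the table was listed at 0. POU5F1, CRIPTO, PDGFRB, ZIC1, CGA, GCM1, FOXA2, ALB and HNF4A had no tested probe set of their own. For 6 of 8 pluripotency markers the sums ran from 12200 to 13600 in small and from 12900 to 14700 in large cells.

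SNRPN encodes the spliceosomal protein SmN and lies, with the overlapping frame SNURF, at the start of a long paternally read transcript that also gives IPW and the SNORD116 and SNORD115 small nucleolar RNAs. This domain on chromosome 15 was covered by 12 probe sets, 1 with SNRPN alone and 11 shared. The brightest, 201522_x_at for SNURF and SNRPN, was at 11.83, 11.92, 11.75 and 11.78 in large and at 11.59, 11.82, 11.54 and 11.91 in small cells. The fractions overlapped within a narrow range, and the difference was -0.11 ± 0.11 SE (adjusted p = 0.7). With arrays centred on the median or scaled to the 75th percentile that difference was 0.12 in either case, so its direction was not stable.

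The next for SNURF and SNRPN in brightness, 206042_x_at, was at 8.97, 9.10, 8.80 and 8.93 in large and at 8.80, 9.32, 8.01 and 8.88 in small cells. Its fractions overlapped, small array 2 being the highest of all 8 arrays and small array 3 the lowest, and the difference was -0.20 ± 0.22 SE (adjusted p = 0.733).

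The third for SNURF and SNRPN, 1560741_at, was at 8.89, 8.88, 8.21 and 8.33 in large and at 7.64, 7.49, 6.97 and 8.12 in small cells. Every small value was below every large one, with small array 4 close to large array 3, and the difference was -1.02 ± 0.24 SE or 2.03-fold. It missed the threshold with adjusted p = 0.0559, and with 7 of 14 alternatives it passed. The promoter window printed above was matched by gene symbol only, and no start site was assigned to this probe set.

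The other 4 tested shared probe sets carried nearly the same symbols, those of SNRPN with the downstream IPW and SNORD transcripts, and are not independent of each other. For 241834_at the level was 6.74, 6.85, 7.63 and 7.27 in large and 6.74, 5.65, 6.67 and 6.46 in small cells, where the highest small array lay only just under the lowest large one, a difference of -0.74 ± 0.27 SE (adjusted p = 0.203). For 213447_at the fractions did not overlap either, and the difference was -0.39 ± 0.14 SE (adjusted p = 0.208). Over all tested probe sets the small values lay below the large ones in 5.46%. The brightest of the 4, 221974_at, overlapped and differed by -0.09 ± 0.18 SE, or by 0.07 with arrays centred on the median and 0.06 with scaling to the 75th percentile. 2 dim probe sets passed the filter through the large group alone, so their differences are only described: 216850_at, at means of 3.02 in small and 4.54 in large cells, differed by -1.52, and 240204_at, the one of SNRPN alone, by -0.61 with overlapping fractions. The 4 below the filter overlapped and differed by -0.48 (1559546_s_at), -0.27 (1559343_at), 0.54 (1559342_a_at) and 0.65 (1559545_at).

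**Figure D5:**
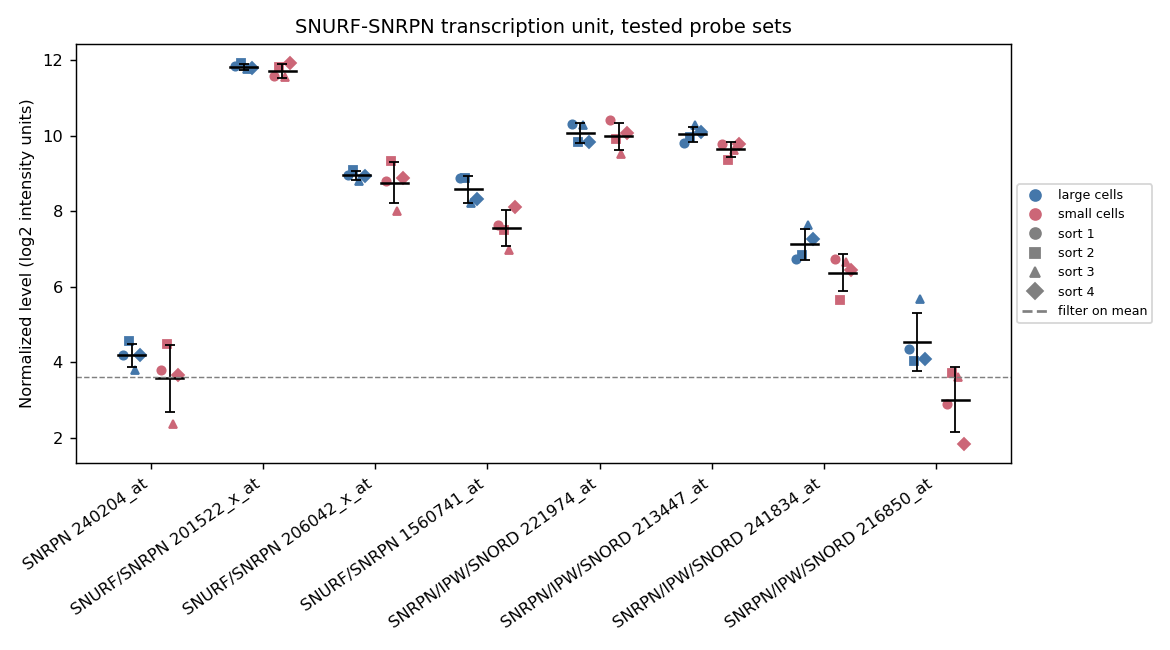
Normalized level (log2 intensity units, vertical axis) on each array for the 8 tested probe sets of the SNURF-SNRPN domain, with large cells in blue, small cells in red and a symbol for each sort number; black bars are group means ± SD (n = 4) and the dashed line is the filter at 3.62. The 201522_x_at points of the fractions overlap near 11.8, while for 1560741_at all 4 small arrays are below the 4 large ones.

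Other imprinted genes listed for the same region of chromosome 15 were not called, beside 1.73% of all genes called in either direction. They are few, so no call among them says little. NDN and MAGEL2, paternally read genes of MAGE proteins, differed by 0.18 ± 0.15 SE and -0.37 ± 0.33 SE. UBE3A is the ubiquitin ligase gene whose paternal copy is silenced in neurons by the antisense end of the SNRPN transcript. It was at 9.13 ± 0.08 (SD, n = 4) in large and 9.44 ± 0.10 (SD, n = 4) in small cells. Every small value was above every large one, an order seen in 4.94% of all genes. The difference was 0.31 ± 0.12 SE (limma adjusted p = 0.236 over genes).

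MEST encodes a hydrolase-like membrane protein and is read from the paternal copy. Its single probe set, 202016_at, was at 11.05, 11.23, 10.67 and 10.95 in large and at 10.78, 10.65, 10.55 and 10.75 in small cells. Only large array 3 reached into the small range, and the difference was -0.29 ± 0.13 SE (adjusted p = 0.301). COPG2, a coat protein gene beside MEST, differed by 0.22 ± 0.18 SE.

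PEG10 is a paternally read gene derived from a retrotransposon and needed for the placenta in mice. Its probe set 212094_at was at 7.62, 8.01, 8.20 and 8.13 in large and at 8.02, 8.37, 7.84 and 8.39 in small cells, which overlapped, with a difference of 0.16 ± 0.18 SE (adjusted p = 0.726). The second, 212092_at, had the opposite sign, -0.36 ± 0.30 SE, and the mean of both was -0.10. The neighbour SGCE, a sarcoglycan gene, differed by -0.10 ± 0.18 SE.

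PEG3, a paternally read zinc finger gene, had 2 probe sets of its own and NNAT, a small membrane protein gene of neurons, had 1, all below the filter. PEG3 differed by 0.64 on 209242_at and by -0.42 on 209243_s_at, with overlapping fractions. A probe set shared by ZIM2 and PEG3, 220653_at, averaged 5.04 ± 0.30 (SD, n = 4) over large arrays and 5.01 ± 0.23 (SD, n = 4) over small ones. NNAT was at 4.48, 2.43, 4.29 and 4.45 in large and at 2.59, 1.79, 3.67 and 3.82 in small cells. Large array 2 fell among the small arrays, and the difference, not tested, was -0.94.

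A list of 56 further genes known or reported as imprinted in humans was read in the same fit, by the brightest tested probe set of each gene. It held 37 tested genes, of which 2 were lower and none higher, beside 1.51% of 14726 genes lower and 0.224% higher. The median difference was 0.06, beside 0.05 over all genes, and 17 of 37 were below 0. The small values all lay below the large ones in 2 of the 37 and all above in 2, beside 5.07% and 4.94% of all genes. IGF2R, the receptor that takes IGF2 to the lysosome and is imprinted in only some people, was at 7.59, 7.95, 9.19 and 8.30 in large and at 6.65, 6.72, 6.99 and 6.78 in small cells. All small arrays lay in a narrow range below the large ones, and it fell by 1.47 on the log2 scale (SE 0.28, limma adjusted p = 0.0201 over genes); its second tested probe set had a difference of -0.79 ± 0.24 SE and did not pass. PPP1R9A, a neuronal actin-binding protein gene near PEG10, was at 7.37, 7.24, 7.38 and 7.37 in large and at 6.33, 5.91, 6.78 and 6.38 in small cells, which did not overlap. It fell by 0.99 (SE 0.20, adjusted p = 0.0283), and its other 2 tested probe sets, at -0.08 and 0.03, did not pass. Neither gene passed without large array 4, small array 1 or small array 2, and PPP1R9A did not pass without large array 2 or large array 3 either.

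In the list of IGF receptors, binding proteins and effectors, 2 of 17 tested genes were lower and none higher, beside 1.51% of all genes lower and 0.224% higher. Beside IGF2R this was the insulin receptor gene INSR, at 7.37, 7.42, 8.53 and 7.93 in large and at 6.57, 6.35, 7.14 and 6.48 in small cells, which did not overlap. INSR fell by 1.18 (SE 0.26, adjusted p = 0.0396); of its other 3 tested probe sets 2 were at -0.62 and -0.51 and 1 at 0.21, and none passed. INSR passed in 2 of the 8 fits with 1 array left out, those without large array 1 or small array 3, and in 8 of 14 alternatives. The list's median was -0.04. An unadjusted p under 0.05 was seen for 2390 of all 14726 genes tested and for 7 of the 17 in this list. Besides IGF2R and INSR these were IGF1R, the receptor through which IGF2 signals, at -0.52 ± 0.15 SE, and 4 genes of secreted IGF-binding proteins, of which IGFBP4 was at -1.05 ± 0.33 SE, IGFBP5 at 0.79 ± 0.25 SE, IGFBP6 at 0.71 ± 0.27 SE and IGFBP7 at 0.77 ± 0.27 SE. These 5 did not pass, with adjusted p from 0.1 (IGF1R) to 0.202 (IGFBP6) over genes.

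Genes that keep imprints and the partners through which KCNQ1OT1 is known to silence chromatin gave no call. None of 18 tested genes passed (limma, adjusted over genes), beside 1.73% of all genes in either direction. The median difference was 0.07. An unadjusted p under 0.05 was seen for 2390 of all 14726 genes and for 1 gene of the 18. That gene was HELLS, a chromatin remodeller needed for DNA methylation, at -0.61 ± 0.20 SE (adjusted p = 0.144). CTCF, which binds the H19 and IGF2 control region, differed by 0.30 ± 0.17 SE (adjusted p = 0.432), the Polycomb methyltransferase EZH2 by 0.16 ± 0.18 SE and EHMT2, also called G9a, by -0.04 ± 0.24 SE. DNMT1, the maintenance DNA methyltransferase, differed by 0.07 ± 0.14 SE.

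Among 16 tested long noncoding RNA genes that are not members none passed, beside 1.73% of all genes in either direction. Of the 16, 4 had an unadjusted p under 0.05, beside 2390 of all 14726 genes, and the median difference was 0.01. RMST, a noncoding RNA of neural differentiation, was at 8.21, 8.68, 8.61 and 8.75 in large and at 7.76, 7.68, 8.04 and 8.08 in small cells. These did not overlap, and the difference was -0.67 ± 0.17 SE (adjusted p = 0.068). NORAD, which binds Pumilio proteins, had a difference of -0.39 ± 0.12 SE (adjusted p = 0.12). MALAT1, a nuclear RNA as KCNQ1OT1 is, differed by -0.06 ± 0.28 SE.

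Over the 8 arrays, the 5 non-member genes whose level was most like that of KCNQ1OT1 243435_at by Pearson r were ZNF324B (0.975), ANKH (0.959), LNPK (0.953), ALG10 (0.943) and EDA (0.943). All were lower on average in small cells, by 0.57 to 1.27 on the log2 scale, and none passed. Over deviations from the group means the highest were OR10H1 (0.986), TRIM68 (0.985), ZNF324B (0.983), HDHD3 (0.979) and ZNF333 (0.978). These are the highest of 14726 values over 8 arrays that share scaling and the low value of small array 4, and are given as a description.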

How the data were processed

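The authors deposited 1 linear intensity per probe set and array, from 4 small and 4 large sorts; per the series design text, GeneChip Operating Software read the scans, which then went into Rosetta Resolver 7.1. The program that wrote these values, its background correction and scaling are not given in the sources used here. Not used was the authors' error-weighted comparison.

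Intensities were moved to log2 after adding 1.814, the 10th percentile of all values, which understates changes of dim genes, and quantile-normalized because the 75th percentiles spanned 1.30 (log2). The 62 control probe sets were left out. Probe sets with a mean above the 40th percentile were fitted with limma 3.58.1 in R 4.3.3 (lmFit, eBayes with trend, two-sided), and p-values were adjusted by Benjamini-Hochberg over 32768 probe sets or over 14726 genes, each by its brightest tested probe set. Symbols came from GEO's annotation, updated by gene ID (41037 of 41091 found). The fit was tested on simulated data.

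Named genes were all members with every probe set, from each list up to 4 called genes of largest difference or, with none, the 2 of smallest p (for MALAT1, CTCF, EZH2, EHMT2, DNMT1, IGF1R, IGFBP4, IGFBP5, IGFBP6, IGFBP7 and neighbours of members, the choice came after their values were seen), NANOG and SOX2, and the 5 genes most like KCNQ1OT1. TUBB3 and POU3F2 were also named after their values were seen. Members and lists were chosen with earlier results of these data known. The labels call the sorts biological repeats. The number of arrays limits precision: the median standard error over genes was 0.24. Tried were 16 alternatives and leaving out each of 8 arrays.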

Additional observations from a re-analysis of the deposited data

Results flagged for a closer look

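In a group of 4 arrays, 2 tested member probe sets had 1 array far from the others, by the gap to its nearest neighbour as a share of the group's range. For KCNQ1OT1 243428_at large array 1 was at 4.69 and the other large arrays between 4.46 and 4.50, a share of 0.837; that array also had the highest 3 prime minus 5 prime difference, 2.91. For 224997_x_at, shared by MIR675 and H19, small array 3 was at 4.32 and the other small arrays between 3.47 and 3.61, a share of 0.835. For each, the share passed Dixon's critical value for 4 arrays, 56 groups were examined, and chance marks about 5% of groups.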

How the results depend on the processing

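The count of called members with 1 symbol was 1 and fell to 0 with arrays left on their deposited scale, with median centring, with no filter, without the variance trend and with the RNA quality covariate (3 prime minus 5 prime); with 1 array left out it ran from 0 to 1. KCNQ1OT1 243435_at was below 0 in all 14 alternatives that fitted it (-1.97 to -1.27) and passed in 9 of them. With 1 array left out it ran from -2.12 to -1.39. It then passed in 2 of 8 fits, those without small array 3 or small array 4. The gene had been picked by this probe set's difference in the same arrays, so these fits lend the difference no support. The count of other imprinted genes called was 2 and fell to 0 with median centring, without the variance trend and with arrays left on their deposited scale, and to 1 when _x_at and _s_at probe sets were dropped or with the mean of probe sets per gene; with 1 array left out it ran from 0 to 2. IGF2R passed in 10 of 13 alternatives, PPP1R9A in 11 of 14 and INSR in 8 of 14; INSR, examined after the data were seen, was lost with median centring, scaling to the 75th percentile, no variance trend, the RNA quality covariate, arrays left on their deposited scale and _x_at and _s_at probe sets dropped. These 3 genes were below 0 in every such fit. The 3 settings that took the other imprinted genes to 0 each called 3 probe sets of the whole table against 491. SNURF and SNRPN 1560741_at ran from -1.11 to -0.88 over 14 alternatives, and passed without small array 4 (adjusted p = 0.0308) and in no other fit with 1 array left out.

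Signs turned only for differences that never passed. With median centring SNRPN 201522_x_at was at 0.12 and 221974_at at 0.067, and with scaling to the 75th percentile at 0.12 and 0.065. With array weights IGF2 202409_at was at 0.12 and PEG3 220653_at at 0.045. With the RNA quality covariate IGF2 202409_at was at 0.14 and MEG3 226210_s_at at 0.13. MEG3 was at 0.23 when _x_at and _s_at probe sets were dropped, and PEG10 at -0.10 with the mean of its probe sets. With 1 array left out, signs also turned for IGF2 202409_at (-0.44 to 0.38), MEG3 226210_s_at (-0.50 to 0.36), 226211_at (-0.27 to 0.81), 210794_s_at (-1.08 to 0.16) and 212732_at (-0.42 to 0.12), PEG3 220653_at (-0.13 to 0.11), and SNRPN 206042_x_at (-0.38 to 0.052) and 221974_at (-0.23 to 0.064). The cause was not tested. The median of all genes was 0.05, and it was 0.10 with median centring, 0.09 scaled to the 75th percentile and -0.05 without normalization.

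Sorts of the same number correlated by 0.097, 0.102, 0.206 and 0.018 in their deviations from the group means. Sorts 1 to 3 correlated best with their own number in both directions, and sort 4 did not. The labels do not say whether equal numbers share a culture, these values do not settle it, and the main fit did not pair them. With the replicate number as a block 1205 probe sets were called against 491, the member count stayed at 1 and that of other imprinted genes at 2. The block brought the standard error of IGF2 202409_at to 0.20 and of MEG3 210794_s_at to 0.34, from 0.48 and 0.70, and SNRPN 1560741_at then passed (adjusted p = 0.0166).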
